A study of Mus musculus with 7 samples.

Results

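The clustered protocadherins are cell surface adhesion proteins encoded in 3 neighbouring gene clusters, α, β and γ, on mouse chromosome 18. They were taken from the deposited count table by gene symbol, which gave 58 of 21965 genes. The α cluster had 15 of them (Pcdha1 to Pcdha12, Pcdha4b, Pcdhac1 and Pcdhac2), the β cluster 22 (Pcdhb1 to Pcdhb22) and the γ cluster 21 (12 of the A type, 6 of the B type and Pcdhgc3, Pcdhgc4 and Pcdhgc5). RNA-seq of hippocampus was compared between 3 libraries from blank control mice (Control) and 4 libraries from mice given noise-induced hidden hearing loss, NIHHL. In that condition hearing thresholds recover after the noise while synapses of the inner ear stay damaged. Per the labels, the noise was 110 dB for 2 h, and the tissue was taken 1 month after the induction. The question of the study was which hippocampal genes go with the memory impairment in NIHHL mice. The labels give no strain, sex or age and do not say whether the libraries came from separate or pooled animals, so p-values measure only the spread between these libraries.

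Each α and γ protocadherin transcript starts at its own promoter with a large variable exon, which encodes the extracellular cadherin repeats, the membrane span and the start of the cytoplasmic tail, and is spliced to constant exons that all members of the cluster share. The β genes have a single coding exon and no constant region. A neuron switches on a few of the α, β, γA and γB promoters at random, through binding of CTCF and cohesin and through DNA methylation, while the C-type isoforms (Pcdhac1, Pcdhac2, Pcdhgc3, Pcdhgc4 and Pcdhgc5) are mostly not chosen at random. The proteins form mixed dimers in 1 membrane that bind matching dimers on another, which lets the branches of a neuron tell self from non-self. In mice, the γ cluster is known for neuron survival, dendrite branching and self-avoidance, and the α cluster for the wiring of serotonergic and olfactory axons. In hippocampal tissue, which mixes many neurons, the level of a member sums over the cells that chose it, and fewer cells with a transcript cannot be told apart from less of it per cell.

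No clustered protocadherin differed between NIHHL and Control after correction for multiple testing. Of the 56 members with enough counts to be tested, 0 passed an adjusted p of 0.05 by edgeR's quasi-likelihood test with Benjamini-Hochberg adjustment, and the smallest adjusted p was 0.996. Over all 14417 tested genes the share called was 0%. DESeq2 also called 0 members, against 4 genes in its whole table. At an unadjusted p under 0.05 there were 2 members by either tool, the γB genes Pcdhgb1 and Pcdhgb7, both higher in NIHHL. In the edgeR fit 3.63% of all tested genes were at that p, 2.32% higher and 1.31% lower in NIHHL. The 2 genes below the test's minimum were Pcdha4b, listed at 0 in every library, and Pcdhb1, with 0 to 3 counts per library.

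The libraries held from 14871367 counts (Control replicate 1) to 24515138 counts (Control replicate 2). Members took between 0.0924% of them in Control replicate 2 and 0.113% in NIHHL replicate 4. Summed over members, Control replicate 1 had the fewest counts, 15565, and Control replicate 2 the most, 22646. Libraries differed along a trend with transcript length: across 8382 well expressed genes, Spearman's correlation between a library's log2 deviation and length ran from -0.65 in Control replicate 2 to 0.59 in NIHHL replicate 4. Members have long transcripts, with a median longest transcript of 4723.5 bases against 2893 for all genes. Neuronal markers were present at summed levels of 4948 to 5859 CPM, where a CPM value is a count taken relative to the scaled total of its library. Choroid plexus RNA was uneven: its 12 markers summed to between 207 and 7201 CPM in Control and between 675 and 8780 CPM in NIHHL, led by Ttr, the transthyretin gene.

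The α and γ genes, which have shared exons, differed from the β genes in the form of their deposited counts. In the gene models matched by identifier (GENCODE M21), 2860 exon bases were common to all α members except Pcdha4b, and 2116 to all γ members. The median share of a member's exon bases that it has in common with another member was 53.5% in α, 44.6% in γ and 0% in β. Only 7.62% of the α values were whole numbers (8 of 105, all of them zeros) and 0 of the 147 γ values were, against 89.6% of the β values (138 of 154) and 90.7% over all genes. The decimals cancelled within a cluster: the summed counts of the α members, and of the γ members, were whole to within 0.05 in 7 of 7 libraries. The count of an α or γ gene is thus an estimate, whereas the summed count of a cluster does not change with how reads are divided among its members.

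Among β genes, decimals appeared in 4 of 22. Pcdhb21 and Pcdhb22 overlap by 455 exon bases, and their summed count was whole in all 7 libraries. Pcdhb6 and Pcdhb10 share no exon base, had decimals only in NIHHL replicate 4, and also summed to a whole number there. Pcdha4b shares 100% of its exon bases with other members, and a pair of read-through models that share bases with 23 members, Gm38666 and Gm37388, were likewise listed at 0 in every library. With no exon base of its own, the 0 of Pcdha4b sets no limit on its transcription. Antisense gene models absent from the table overlap exons of 14 members, with 2613 bases at Pcdhga10, 2486 at Pcdha11, 1927 at Pcdhb12 and 1559 at Pcdhgc3. Because the use of strand in counting was not given in the sources used here, reads of those members and of their antisense partners cannot be told apart.

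Levels per kilobase of the longest transcript spread over 175-fold among the tested members. Pcdhgc3, whose tail binds the Wnt pathway protein Axin1 and which promotes dendrite branching, had the highest mean level over the 7 libraries, 32.2 CPM per kilobase with a range of 29.7 to 35.0. Pcdhgc5, which associates with GABA-A receptors, followed at 27.9, with a range of 24.6 to 31.4 that overlaps the former. Both stood above Pcdhac2, a C-type isoform of serotonergic axon tiling, at 10.8 (range 10.1 to 11.96). Pcdhac2 and the next gene, Pcdhga11 at 9.85 (range 7.93 to 10.9), overlapped in range. Before division by transcript length Pcdhgc5 stood above Pcdhgc3, with mean levels of 161 and 151 CPM, so their order depends on the lengths used.

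Below these, Pcdhga3 at 6.85 CPM per kilobase and Pcdhgc4 at 6.31 could not be ranked beyond their spread. Pcdhgc4 is the isoform that mouse genetics ties to neuron survival. Not every C-type isoform was high: Pcdhac1 was at 1.29 CPM per kilobase, inside the range of the randomly chosen α genes. The medians were 10.8 for the 5 C-type isoforms, 4.41 for the 12 γA genes, 3.69 for the 6 γB genes, 1.33 for the 21 tested β genes and 1.28 for the 12 tested genes among Pcdha1 to Pcdha12. The lowest tested gene was Pcdha8 at 0.184.

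**Figure D1:**
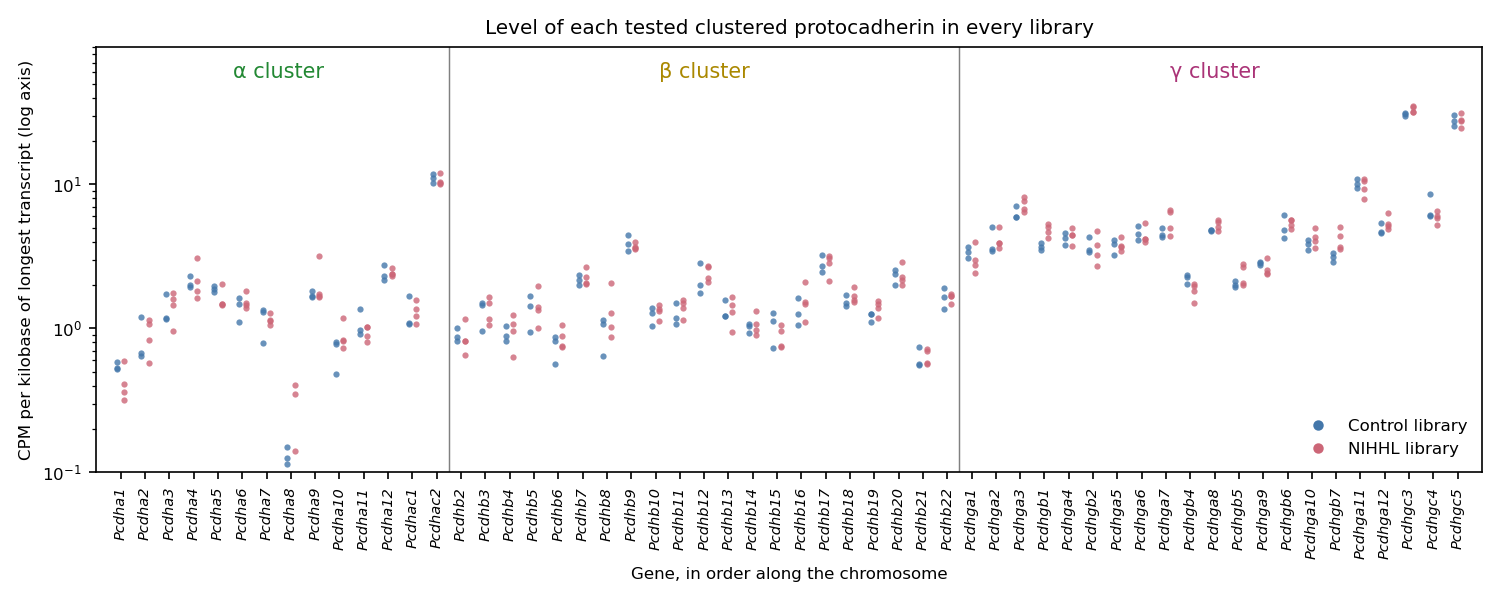
Level of each tested clustered protocadherin, in CPM per kilobase of longest transcript on a log axis, with genes in their order along the chromosome and 1 point per library (3 Control, 4 NIHHL). Pcdhgc3 and Pcdhgc5 stand above the other members, Pcdhac2 and Pcdhga11 follow with ranges that overlap, Pcdha8 is lowest (its value of 0 in NIHHL replicate 4 cannot be drawn), and the points of the groups intermingle for most genes.

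A few isoforms made up much of the α and γ counts, and less so of the β counts. Pcdhac2 alone held 41.5% of the α counts, Pcdhgc5 22.3% and Pcdhgc3 20.9% of the γ counts, and the leading β gene, Pcdhb17, 9.63% of the β counts. These are shares of counts, and longer transcripts take more of them. C-type isoforms together held 46.9% ± 2.40 (SD, n = 3) of α counts in Control and 45.4% ± 1.16 (n = 4) in NIHHL. In γ the C-type share was 48.1% ± 1.38 in Control and 47.2% ± 1.11 in NIHHL. Both differences were smaller than the SD in Control.

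The evenness of each cluster was summarised by its effective number of members, the number of equally abundant genes that would give the same entropy of counts. It was 7.99 ± 0.420 in Control and 8.25 ± 0.191 in NIHHL for α, 18.6 ± 0.350 and 18.7 ± 0.246 for β, and 13.6 ± 0.117 and 13.6 ± 0.336 for γ. The β cluster was thus the most even, and each group difference was below the larger SD of its pair. No test was made on these summaries of members.

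Summed over each cluster, the level in NIHHL overlapped that in Control. The α sum was 164, 146 and 150 CPM in Control replicates 1 to 3 against 150, 148, 138 and 179 CPM in NIHHL replicates 1 to 4. Its means were 153 ± 9.62 and 154 ± 17.3 (SD), a log2 ratio of 0.0051. NIHHL held both the lowest and the highest α sum.

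The β sum was 143, 117 and 136 in Control against 135, 148, 121 and 151 CPM in NIHHL, with means of 132 ± 13.3 and 139 ± 13.9 and a log2 ratio of 0.07. Control replicate 2 was lowest and NIHHL replicate 4 highest. The γ sum was 743, 688 and 681 in Control against 712, 727, 704 and 798 CPM in NIHHL, with means of 704 ± 34.0 and 735 ± 42.8 and a log2 ratio of 0.06. The groups interleave here too, with NIHHL replicate 4 highest. When all α counts and all γ counts were each entered as 1 row of the table before the fit, the log2 fold changes were 0.0052 with a standard error (SE) of 0.09 for α and 0.06 with an SE of 0.07 for γ.

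**Figure D2:**
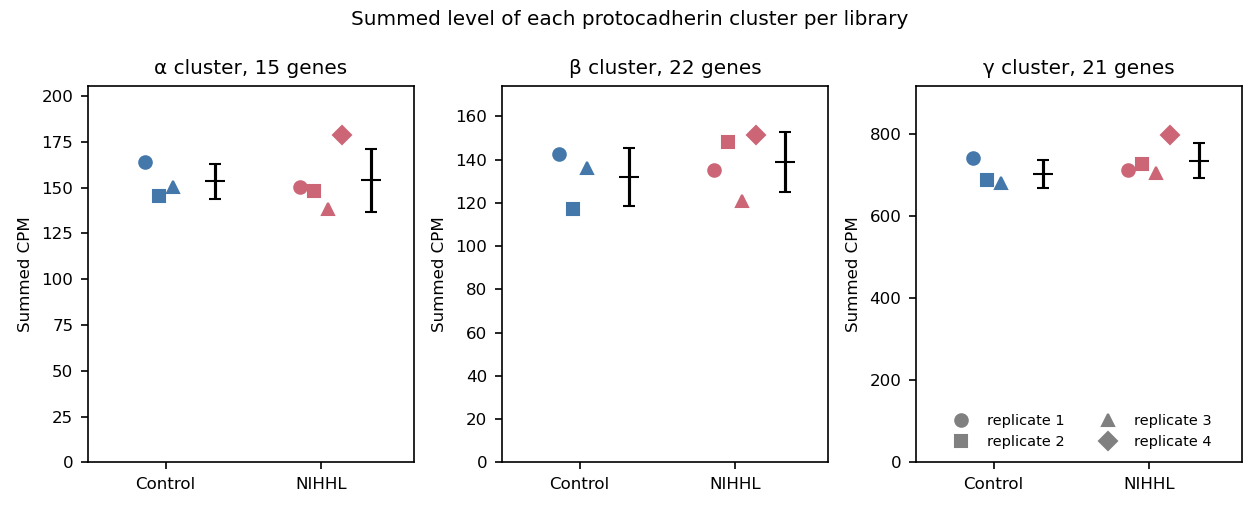
Summed CPM of the α, β and γ clusters in each library, with axes from 0, symbols for the replicate number, and the group mean with its SD beside the points. In all 3 clusters the groups overlap and NIHHL replicate 4 is the highest library.

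Single members leaned towards higher values in NIHHL, by little. The median log2 fold change, NIHHL minus Control, was 0.06 over the 56 tested members, and 42 were on the higher side and 14 on the lower. Over all tested genes the median was -0.00045 and 49.9% were on the higher side. By cluster, 10 of 14 α genes were on the higher side (median 0.05), 18 of 21 β genes (median 0.08) and 14 of 21 γ genes (median 0.06). The lean changed with the libraries used: 26 members were on the higher side without Control replicate 2, 28 without NIHHL replicate 4, and 19 without both, where the median was -0.07. Those are the Control library where members were lowest and the NIHHL library where they were highest, so their removal tends to lower the differences. Without Control replicate 1 the count was 44 (median 0.12), and without NIHHL replicate 3 it was 43 (median 0.12). With the trend on transcript length removed from every library, 35 members were on the higher side and their median was 0.03, against -0.02 for all genes.

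Library by library, the median log2 deviation of the members from their mean over libraries was 0.07, -0.15 and -0.05 in Control replicates 1 to 3, against -0.01, 0.05, -0.10 and 0.18 in NIHHL replicates 1 to 4. The highest and the lowest library were thus those at the ends of the length trend. Control replicate 2 held the lowest value for 22 of the 56 members, and NIHHL replicate 4 the highest for 24. NIHHL replicate 3, with a length correlation of -0.36, held the lowest value for 12 members. NIHHL replicate 2, with a correlation of only 0.10, held the highest value for 12 members, and Control replicate 1, at 0.50, for 10. The part that the length trend plays in single members was not tested beyond the fit above.

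**Figure D3:**
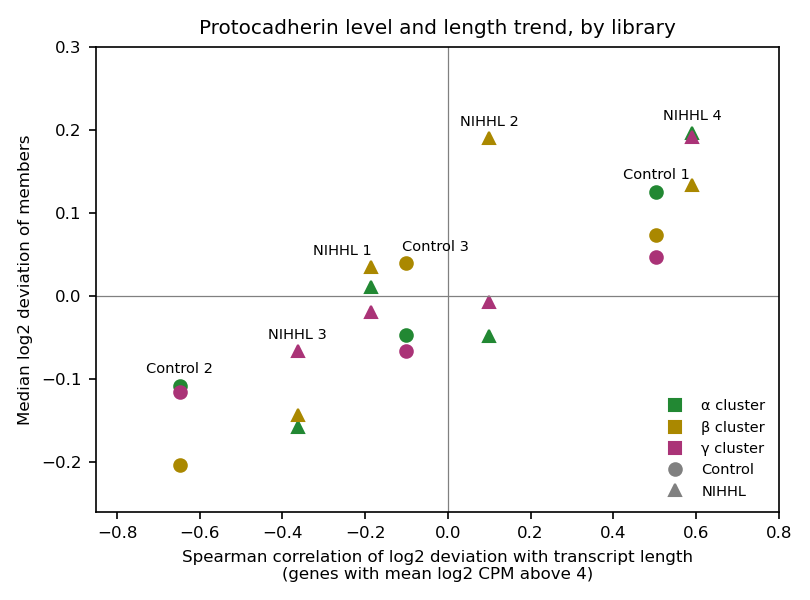
Median log2 deviation of the tested members of each cluster from their mean over libraries (vertical axis), against each library's Spearman correlation between log2 deviation and transcript length over 8382 genes with a mean log2 CPM above 4 (horizontal axis). Control replicate 2, at -0.65, has members below 0 in all 3 clusters, and NIHHL replicate 4, at 0.59, has members above 0 in all 3.

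The precision of the comparison differed between clusters. The 95% interval of the log2 fold change lay within 2-fold in either direction for 54 of 56 members and within 1.5-fold for 42, made up of 8 of 14 α, 16 of 21 β and 18 of 21 γ genes. The 2 members with an interval past 2-fold were Pcdha8 and Pcdhb8. The median coefficient of variation between libraries of a group was 20.9% in α, 16.0% in β and 11.8% in γ. Counting error alone would give 8.67%, 9.52% and 5.12%, less than the spread in each cluster. Libraries varied by over 2 times that error for 30 of the 56 members, made up of 8 of 14 α, 6 of 21 β and 16 of 21 γ genes. This counting error leaves out the error of dividing reads in shared exons, whose part was not tested.

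**Figure D4:**
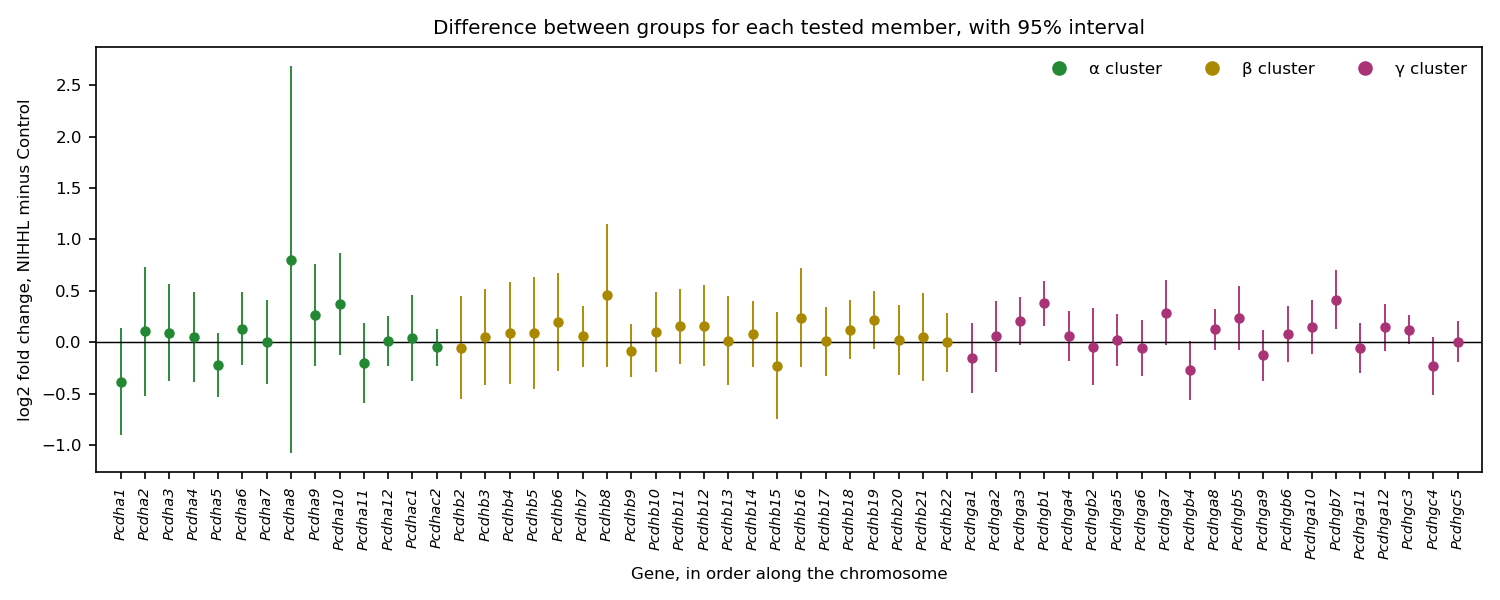
Log2 fold change, NIHHL minus Control, of each tested member with its 95% interval, in order along the chromosome and coloured by cluster. Intervals of 54 of the 56 members include 0, and those of Pcdhgb1 and Pcdhgb7 do not before adjustment for multiple testing.

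In the γ cluster, 4 members had groups that did not overlap, Pcdhgb1, Pcdhgb7 and Pcdhgc3 higher and Pcdhgb4 lower in NIHHL. The α and β clusters had 0 such members, so the count was 4 of 56, beside 5.2% of all tested genes, 2.84% higher and 2.37% lower. Pcdhgb1 was at 17.4, 18.4 and 16.6 in Control against 22.1, 24.0, 19.9 and 24.9 CPM in NIHHL. Every NIHHL value exceeded every Control value, with group means of 17.5 ± 0.91 and 22.7 ± 2.2 CPM. Its log2 fold change was 0.38 (SE 0.10, 95% interval 0.16 to 0.60), with an unadjusted p of 0.0032 and an adjusted p of 0.996 by edgeR's quasi-likelihood test with Benjamini-Hochberg adjustment. It ranked 23rd of all tested genes by p.

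Besides the constant region, Pcdhgb1 shares 1038 exon bases with its neighbour Pcdhga4, the largest such overlap between members of the γ cluster. Pcdhga4 had a log2 fold change of 0.06 (SE 0.11). The summed level of the pair was 39.0, 38.6 and 34.7 in Control against 43.0, 47.6, 37.6 and 45.8 CPM in NIHHL, a log2 ratio of 0.22. Unlike Pcdhgb1 alone, the summed pair overlapped between the groups, through NIHHL replicate 3. How the shared reads of these 2 genes were divided was not tested.

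Pcdhgb7 was at 14.6, 13.6 and 15.8 in Control against 17.3, 20.6, 16.8 and 23.7 CPM in NIHHL, and here too every NIHHL library was above every Control library. The log2 fold change was 0.41 (SE 0.13, 95% interval 0.13 to 0.70), with an unadjusted p of 0.0086 and an adjusted p of 0.996 by the same test. Without both Control replicate 2 and NIHHL replicate 4, its lowest and highest libraries, the log2 fold change was 0.26 and the unadjusted p 0.056. For Pcdhgb1 without the same libraries it was 0.38 and the unadjusted p 0.0057. Without NIHHL replicate 3 the log2 fold change of Pcdhgb7 was 0.48. An antisense gene model overlaps exons of Pcdhgb7, as it does those of its neighbours Pcdhga10, Pcdhga11 and Pcdhga12, whose log2 fold changes were 0.15, -0.06 and 0.14.

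Pcdhgb4, the γ gene with the lowest level, went the other way. It was at 10.9, 10.5 and 9.43 in Control against 8.47, 9.19, 9.41 and 6.96 CPM in NIHHL, so the groups touch at Control replicate 3 and NIHHL replicate 3 without crossing. Its log2 fold change was -0.27 (SE 0.13), with an unadjusted p of 0.062. Without both Control replicate 2 and NIHHL replicate 4 it was -0.17, with an unadjusted p of 0.24. Pcdhgb4 shares 108 exon bases beyond the constant region with Pcdhga8, and the summed level of that pair overlapped between the groups, at a log2 ratio of 0.01. The remaining γB genes, Pcdhgb2, Pcdhgb5 and Pcdhgb6, had log2 fold changes of -0.04, 0.23 and 0.08, so the 6 γB genes did not all lean 1 way.

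Of the γC genes, Pcdhgc3 was at 145, 139 and 146 in Control against 149, 162, 164 and 150 CPM in NIHHL. The groups were apart by a small margin, for a log2 fold change of 0.12 (SE 0.07, 95% interval -0.02 to 0.27). Pcdhgc5 was at 175, 160 and 146 in Control against 159, 162, 142 and 181 CPM in NIHHL. Its groups spanned the same range, with a log2 fold change of 0.0070 (SE 0.09).

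Pcdhgc4 was at 30.7, 42.8 and 30.2 in Control against 30.1, 26.1, 29.1 and 32.9 CPM in NIHHL. Control replicate 2 was the high library, opposite to the median log2 deviation of the members there, -0.15. With it the log2 fold change was -0.23 (SE 0.13), and without it -0.04.

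**Figure D5:**
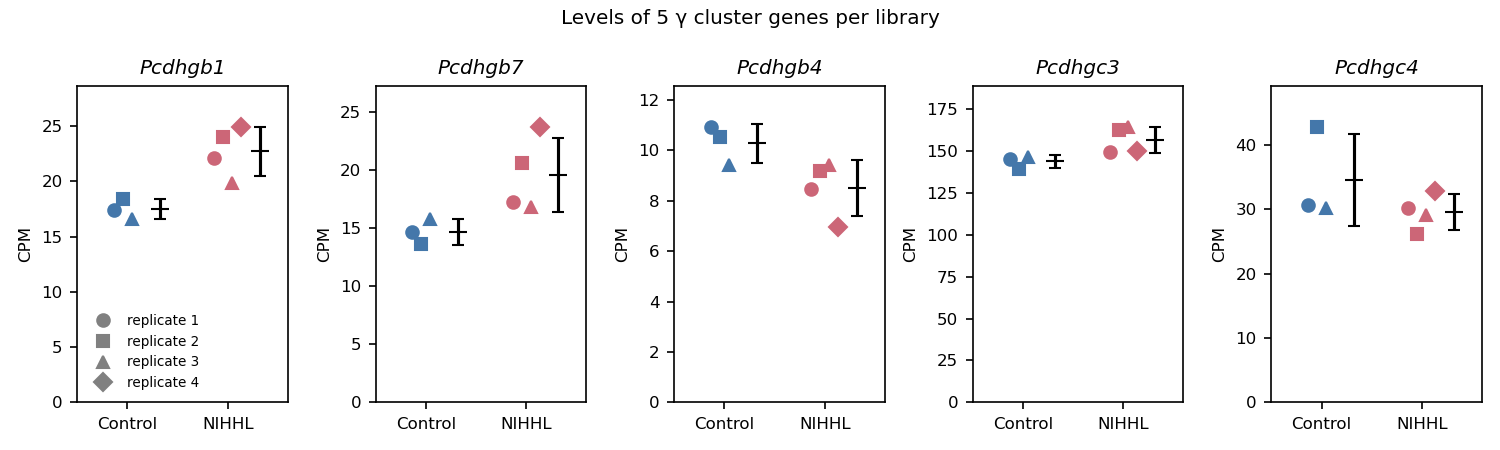
CPM of 5 γ genes in each library, with axes from 0 and the group mean with its SD beside the points. Pcdhgb1, Pcdhgb7 and Pcdhgc3 have every NIHHL library above every Control library, Pcdhgb4 has every NIHHL library below, and the Control mean of Pcdhgc4 is raised by replicate 2 at 42.8 CPM.

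The 12 γA genes lay between log2 fold changes of -0.16 for Pcdhga1 and 0.29 for Pcdhga7, and 10 of them were within 0.2 of 0. Pcdhga11, the most abundant, was at 51.5, 44.6 and 47.5 in Control against 52.0, 37.7, 43.9 and 50.5 CPM in NIHHL (log2 fold change -0.06, SE 0.11). Pcdhga3 was at 33.2, 27.9 and 28.1 in Control against 31.8, 36.3, 30.4 and 38.6 CPM in NIHHL (0.21, SE 0.10). Its value was 0.11 without Control replicate 2 and NIHHL replicate 4, its lowest and highest libraries, and 0.29 without Control replicate 1. Only Control replicate 1 kept its groups from separating. Pcdhga12 was at 23.2, 23.8 and 27.5 in Control against 26.9, 31.9, 25.1 and 26.1 CPM in NIHHL (0.14, SE 0.11), with both groups crossing.

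In the α cluster the leading isoform differed by less than its error. Pcdhac2 was at 69.2, 64.9 and 60.5 in Control against 60.2, 60.9, 59.2 and 70.4 CPM in NIHHL, a log2 fold change of -0.05 (SE 0.08, 95% interval -0.23 to 0.13). NIHHL replicates 1 and 3 were slightly below every Control library, NIHHL replicate 2 was just above the lowest, and NIHHL replicate 4 was above all others. Pcdhac1, whose protein needs a partner to reach the cell surface, was at 9.10, 5.87 and 5.80 in Control against 7.41, 6.55, 5.78 and 8.49 CPM in NIHHL (0.04, SE 0.19). Without Control replicate 2 and NIHHL replicate 4 its log2 fold change was -0.16.

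The randomly chosen α genes were the least precise members. Pcdha12, their most abundant, was at 14.8, 11.6 and 12.4 in Control against 13.99, 12.8, 12.4 and 12.7 CPM in NIHHL (log2 fold change 0.01, SE 0.11). Pcdha4 was at 12.4, 10.7 and 10.5 in Control against 11.4, 8.68, 9.80 and 16.5 CPM in NIHHL (0.05, SE 0.20). NIHHL replicate 4 was its highest library, and the log2 fold change was -0.16 without that library and -0.17 with the replicate number as a block.

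Pcdha9 showed the same library apart. It was at 8.76, 8.94 and 9.67 in Control against 9.25, 9.02, 8.81 and 16.9 CPM in NIHHL, and its log2 fold change of 0.27 (SE 0.22) became -0.01 without NIHHL replicate 4. Pcdha5 was at 9.71, 9.36 and 10.2 in Control against 7.69, 7.64, 7.60 and 10.6 CPM in NIHHL. There 3 NIHHL libraries were below every Control library and NIHHL replicate 4 above them all, so that the log2 fold change of -0.22 (SE 0.14) became -0.35 (SE 0.12) without that library.

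Pcdha10 was at 4.18, 2.60 and 4.34 in Control against 4.46, 3.91, 4.405 and 6.31 CPM in NIHHL (log2 fold change 0.37, SE 0.23). That value was 0.16 without Control replicate 2, 0.21 without NIHHL replicate 4 and 0.0029 without both, which are its lowest and highest libraries. Without Control replicate 3 it was 0.51. Pcdha1 was at 2.76, 2.73 and 3.07 in Control against 1.66, 3.10, 2.15 and 1.89 CPM in NIHHL (-0.38, SE 0.24, and -0.59 without NIHHL replicate 2). Both groups overlapped for each gene, for Pcdha1 through NIHHL replicate 2 alone. The identifier listed as Pcdha10 carries the symbol Pcdha11 in the gene models used here, so its name is uncertain.

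Pcdha8, the lowest tested member, varied most between libraries. It was at 0.674, 0.797 and 0.613 in Control against 2.16, 0.747, 1.87 and 0 CPM in NIHHL, which are estimated counts of 10.42, 18.92 and 13.16, then 47.14, 13.24, 33.62 and 0. NIHHL held both the highest libraries and the one listed at 0. The log2 fold change was 0.80 with an SE of 0.82, and its 95% interval ran from -1.08 to 2.68. Without Control replicate 2 and NIHHL replicate 4, the library listed at 0, the log2 fold change was 1.33. By limma-voom on all libraries it was -0.27 (SE 1.42). These were the highest and lowest values among 15 alternatives. The coefficient of variation within groups was 79.5%, against 22.9% from counting error.

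The β genes, nearly all of whose counts were whole numbers, gave small differences with wide errors. Of the 21 tested, 17 lay within 0.2 of 0 on the log2 scale, and the smallest unadjusted p was 0.12. Pcdhb17, with the highest CPM, was at 15.2, 11.5 and 12.6 in Control against 14.3, 14.9, 9.91 and 13.3 CPM in NIHHL (log2 fold change 0.0075, SE 0.15). Pcdhb9, the highest per kilobase at 3.79, was at 13.7, 11.8 and 10.5 in Control against 10.95, 12.2, 10.8 and 11.2 CPM in NIHHL (-0.08, SE 0.12). For both genes the groups overlapped.

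Pcdhb22 was at 10.99, 8.98 and 12.5 in Control against 11.05, 11.03, 9.75 and 11.5 CPM in NIHHL (log2 fold change 0.0012, SE 0.13, and -0.15 without Control replicate 2 and NIHHL replicate 4). Pcdhb19 had the smallest p of the β genes, with 8.97, 7.85 and 9.01 in Control against 10.5, 11.1, 8.48 and 9.85 CPM in NIHHL (0.22, SE 0.13). For that gene 3 NIHHL libraries were above every Control library and NIHHL replicate 3 was not.

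Pcdhb8 was at 3.57, 2.14 and 3.82 in Control against 2.90, 4.25, 3.41 and 6.84 CPM in NIHHL (log2 fold change 0.46, SE 0.31). Control replicate 2 was its lowest library and NIHHL replicate 4 its highest, so leaving out both lowers the log2 fold change, here to -0.08. Without Control replicate 3 it was 0.63. Pcdhb16 was at 6.61, 5.50 and 8.54 in Control against 7.96, 7.70, 5.78 and 11.03 CPM in NIHHL (0.24, SE 0.22). Its value was -0.09 without Control replicate 2 and NIHHL replicate 4, again its lowest and highest libraries, and 0.43 without Control replicate 3. The lowest tested β gene, Pcdhb2, was at 2.83, 2.31 and 2.45 in Control against 2.30, 3.28, 2.31 and 1.83 CPM in NIHHL (-0.05, SE 0.23). Pcdhb1, below the test's minimum, had 1, 0 and 3 counts in Control and 1, 0, 2 and 3 in NIHHL, at or under the 3 counts that a count of 0 allows in a library.

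Genes of promoter choice and chromatin were taken from a list written with earlier results of these data known. Of these 22 genes, 0 were called and 0 were at an unadjusted p under 0.05. In NIHHL 20 were on the higher side (median log2 fold change 0.04), beside 49.9% of all tested genes. The list summed to 1366, 1162 and 1308 CPM in Control against 1252, 1341, 1244 and 1384 CPM in NIHHL. Control replicate 2 was thus lowest and NIHHL replicate 4 highest, as for the members. The lean of this list was not examined with libraries left out. Ctcf, the insulator protein that loops the chosen promoter to its enhancer, was at 72.5, 59.3 and 67.9 in Control against 67.1, 69.1, 63.4 and 70.5 CPM in NIHHL (0.02, SE 0.08). Smchd1, a repressor of the clusters, had a log2 fold change of 0.08 (SE 0.10). The DNA methylation genes with the smallest p, Uhrf1 and Dnmt3a, stood at 0.37 (SE 0.24) and 0.16 (SE 0.11). For each of these 4 genes the groups overlapped.

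Intracellular partners of the protocadherins, such as the kinases Fyn, Ptk2 and Ptk2b and the actin-regulating WAVE complex, had 0 of 22 called, 12 on the higher side and a median log2 fold change of 0.00094. Those with the smallest p were Pdcd10, an apoptosis protein that binds the γ tail, and Adam10, the protease that sheds γ ectodomains, at -0.14 (SE 0.11) and 0.10 (SE 0.08). Of the non-clustered protocadherins, which have no shared exons, 0 of 11 tested were called and 4 were on the higher side (median -0.05), with Pcdh7 at -0.14 (SE 0.09) and Pcdh18 at -0.28 (SE 0.18). Of the listed cadherins with a Cdh symbol, 0 of 17 were called and 9 were on the higher side (median 0.02). Cdh7 was at -0.32 (SE 0.15) and Cdh13 at -0.10 (SE 0.07).

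Genes next to the clusters on the chromosome leaned the opposite way from the members, with 3 of 13 tested on the higher side and a median log2 fold change of -0.05. Again 0 were called, and 1 was at an unadjusted p under 0.05. That gene, Zmat2, was at 183, 212 and 166 in Control against 167, 154, 157 and 159 CPM in NIHHL (-0.23, SE 0.08), and Ik had a log2 fold change of -0.34 (SE 0.16). Taf7, which lies between members of the clusters on the opposite strand, had a log2 fold change of -0.22 (SE 0.13). None of the differences between these lists and the clustered protocadherins was tested.

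Markers of the cell types in the tissue were in part uneven between the groups, with 0 called. All 8 ependymal markers were on the higher side in NIHHL, with sums of 62.2 to 77.6 CPM in Control and 94.5 to 109 CPM in NIHHL and 8 at an unadjusted p under 0.05. All 6 oligodendrocyte markers were on the higher side too, with sums of 6683 to 8412 and 7656 to 9118 CPM and 3 at an unadjusted p under 0.05. Of 8 neuronal markers 1 was on the higher side, with sums of 5425 to 5859 CPM in Control and 4948 to 5666 CPM in NIHHL. Of those markers 2 were at an unadjusted p under 0.05, Snap25 and Stmn2, both with every NIHHL library below every Control library. The 7 astrocyte markers, all on the higher side, summed to 4859 to 6085 and 5465 to 6002 CPM, and the 7 meningeal fibroblast markers, 6 on the higher side, to 84.95 to 117 and 85.6 to 124 CPM.

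Within the neurons, the 5 dentate granule markers were all on the higher side (sums of 384 to 505 CPM in Control and 418 to 550 CPM in NIHHL), with 1 at an unadjusted p under 0.05. Of the 4 CA1 markers 1 was on the higher side (420 to 489 and 433 to 481 CPM), and of the 6 CA2 and CA3 markers 1 (398 to 540 and 373 to 418 CPM). Serotonergic neurons, whose axons reach the hippocampus but whose cell bodies lie elsewhere, were represented by 5 markers that summed to 14.1 to 16.1 CPM over the 7 libraries. Of these, Ddc was at 7.17 to 8.37 CPM, Slc18a2 at 4.29 to 6.90 CPM and Tph2 at 0.920 to 1.93 CPM. Slc6a4 did not exceed 0.275 CPM, and Fev was at 0 in 6 of 7 libraries. All 12 choroid plexus markers were on the higher side, with the sums given above and Ttr at 56.3, 6558 and 1283 in Control against 7826, 487, 4355 and 3864 CPM in NIHHL. The part of these shifts in the values of the clustered protocadherins was not tested.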

How the data were processed

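Polyadenylated RNA of mouse hippocampus was measured in 3 Control and 4 NIHHL libraries. The authors deposited expected counts per gene without scaling by depth. StringTie 1.3.1, HISAT2, DESeq2 and Bowtie2 2.2.8 are listed in the submitters' processing notes, with no role. Genome build, annotation, counting step and strandedness were not given in the sources used here. Counts were rounded, genes were filtered with edgeR's filterByExpr (minimum count 10), which left 14417 genes with 99.96% of all counts, and libraries were scaled by TMM. NIHHL was tested against Control on the whole table with edgeR 4.0.16's quasi-likelihood test (robust, group as the term; prior count 2), with Benjamini-Hochberg adjustment and a threshold of 0.05. CPM carry the TMM factors. SE is the log2 fold change over the root of the F statistic. DESeq2 1.42.0 and limma-voom (limma 3.58.1) in R 4.3.3 were alternatives, beside other size factors, no filter, unrounded counts, a replicate block, removal of a loess trend on transcript length (span 0.5), summed clusters and left-out libraries. The fitting code was tested on simulated data.

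Exon bases and transcript lengths came from GENCODE M21 (GRCm38), matched by Ensembl identifier for 58 of 58 members and 21806 of 21965 genes. No coordinate is printed, because the build of the counts is not given, and no sequence of a member is printed. Depth ran from 14871367 to 24515138 counts per library. Precision is given by SE and by the SD between libraries, and counting error assumes that reads are independent molecules, which reads without molecular identifiers are not. The members, gene lists and tests were chosen with earlier results of these data known. Named members were those past the adjusted threshold (none), the C-type isoforms, in each cluster the 3 of highest CPM, the 3 of smallest p and the lowest tested, and those below the filter. Of each context list (promoter choice, partners, cadherins, neighbours) the 2 genes of smallest p were named, with Ctcf, Smchd1 and, of the markers, Ttr. Other genes, markers included, were named after their values were seen, to show neighbours, overlapping pairs, the ends of a range and marker levels. No p-value was computed over the members as a set.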

Additional observations from a re-analysis of the deposited data

Results flagged for a closer look

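In the 4 NIHHL libraries, NIHHL replicate 4 stood far above the other 3 for 4 of the 65 quantities examined. The gap to the nearest library, divided by the whole range, was 0.970 for Pcdha5, 0.946 for Pcdha9, 0.885 for Pcdhga6 and 0.851 for Pcdhac2, above Dixon's 95% limit for 4 samples. Chance alone flags about 1 group in 20, so 4 of 65 is close to the number it would give. The quantities also share the same libraries and are not independent. For Pcdhga6 the NIHHL values were 19.7, 19.0, 19.6 and 25.4 CPM beside 24.4, 19.5 and 21.4 CPM in Control. The 3 clusters were also highest in this library, which had the strongest positive trend with transcript length, 0.59.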

How the results depend on the processing

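No member was called under any of 15 alternatives, nor with α and γ each summed to 1 row, and the smallest adjusted p of a member ran from 0.641 to 1.00. Members at an unadjusted p under 0.05 were 2 to 5 with each library left out in turn (5 without NIHHL replicate 4, 4 without Control replicate 1), 5 with the replicate block and 4 without both Control replicate 2 and NIHHL replicate 4, against 2. The share of all tested genes at that p also moved. It was 3.87% without NIHHL replicate 4, 5.51% without Control replicate 1, 2.35% with the block and 7.18% without both libraries, against 3.63%. Pcdhgb1 was among the members at that p in 15 of 15 alternatives and Pcdhgb7 in 14. Both genes were picked by their p in the main fit, and the alternatives reuse the same libraries. These counts are therefore not independent of that choice. The β median log2 fold change was -0.081 without both libraries and -0.018 to 0.15 with each library left out in turn, against 0.080. The labels number the replicates in both groups without stating a pairing, and the libraries were treated as unpaired. Same-numbered libraries correlated at -0.45, -0.44 and 0.06 in their deviations. These values cannot decide the question, because the deviations also carry other differences between libraries, such as the length trend. With the block 27 of 56 members were on the higher side. Of the 25 named members tested, 12 kept their sign in every alternative and 13 did not. DESeq2 called 4 genes, 0 of them members, and leaving out both libraries called 1 gene. With 3 and 4 libraries, the 95% interval stayed within 1.5-fold for 42 of 56 members, and for 8 of 14 in the α cluster, so for the others a difference of that size lies inside the interval.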
